A study of Bos taurus with 16 samples.

Results

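The genes of mRNA deadenylation described here, 10 in number, were followed in bovine oocytes and embryos developed in vivo. They are the scaffold subunits CNOT1, CNOT2 and CNOT3 of the CCR4-NOT complex, its nucleases CNOT6, CNOT6L, CNOT7 and CNOT8, the other deadenylases PAN2 and PARN, and the adaptor BTG4. They were chosen by name among the 27393 loci of the deposited data, and each of the 10 names matched 1 locus. The data hold 16 samples at 8 stages, with 2 samples each: mature oocytes (MII), embryos of 2, 4, 8 and 16 cells (2C, 4C, 8C and 16C), early (EM) and compact (CM) morulae, and blastocysts (BL). Oocytes and embryos were sequenced one by one after amplification of their RNA, and no treatment or genetic change is given in the labels. MII, 2C and 4C samples (6) were taken as before embryonic genome activation (EGA) and the later ones (10) as after it, which is where the study places EGA.

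Most cytoplasmic mRNAs carry a poly(A) tail that protects them and helps them to be translated. The CCR4-NOT complex shortens this tail with a pair of nucleases, one of the CNOT6 or CNOT6L type and one of the CNOT7 or CNOT8 type, which are held together by CNOT1. CNOT2 and CNOT3 form a second module on that scaffold. An oocyte stores mRNAs that are later cleared from the embryo, and BTG4, known from mouse oocytes, bridges CNOT7 or CNOT8 to translated mRNAs during this clearance. PAN2 trims long tails together with PAN3, and PARN is a poly(A)-specific nuclease that also matures several non-coding RNAs.

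Values are given as normalised read counts, which are the counts on a locus divided by the authors' size factor of the sample. They are not divided by gene length, so levels were compared between stages of a gene and not between genes. Between 607672 and 3379426 reads per sample were recovered from them, and 3 reads, taken as the floor of detection for counting error only, equal 1.09 to 5.40 normalised counts. As each value stems from a whole oocyte or embryo, fewer cells of a type and less RNA per cell could not be told apart. Nothing in the labels says that the samples of a stage came from separate animals, so p-values measure the spread between these samples.

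The stage labels were checked against marker genes. The 10 oocyte markers together held between 3120 and 10136 CPM (reads divided by the sample total, in units of 1e6) before EGA and between 7.86 and 1464 CPM after it, most of it before EGA on H1FOO, the oocyte linker histone. The upper end after EGA was 8C replicate 2, whereas 8C replicate 1 held 26.0 CPM, so these embryos stand apart from each other in stored transcripts. Called changes in the steps to and from the 8-cell stage are therefore also given without each of them, as sizes only. Of the oocyte markers, BMP15 is listed at 0 in every sample, and the blastocyst marker CDX2 had reads only in 8C replicate 1. The 11 blastocyst markers held between 145 and 326 CPM before EGA and between 2905 and 6121 CPM after it, most of it on POU5F1 (highest in 8C replicate 1). The trophectoderm genes KRT8, KRT18, GATA2 and GATA3 were highest in the blastocysts, with KRT8 at 525 and 503 CPM. Other genes of the list were not. TEAD4 was at 2.95 and 10.3 CPM in blastocysts but 40.0 and 15.0 CPM in compact morulae. GATA6 was at 166 CPM in both blastocysts but 476 CPM in EM replicate 2. Before the blastocyst stage 16C replicate 2 stood apart, with KRT8 at 102 CPM and the oocyte gene ZAR1 at 44.4 CPM, against 3.86 and 0 CPM in 16C replicate 1. The compact morulae differed as well, with KRT18 at 51.3 and 0 CPM. The 11 cumulus and granulosa cell markers held between 564 and 1987 CPM before EGA and between 382 and 874 CPM after it, mostly on STAR, while INHA, AMH and FOXL2 are listed at 0 in all samples. Of the same list, HAS2 was between 68.7 and 298 CPM before EGA and at most 18.3 CPM after it, FSHR had reads in all 6 samples before EGA and in 0 of 10 after it, and CYP19A1 was between 3.545 and 24.3 CPM before EGA and at most 13.5 CPM after it, the direction of BTG4 and CNOT6L. Other genes of this list went the other way. CYP11A1 had reads only in the blastocysts (3.93 and 2.94 CPM), and TNFAIP6 only in 8C replicate 1, 16C replicate 2 and BL replicate 2. AMHR2 was highest in BL replicate 2 (7.34 CPM). The part of cumulus and granulosa cells in the results was not tested.

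BTG4 and CNOT6L fell from before to after EGA by log2 changes of -8.35 and -4.09. CNOT7 was also lower after EGA (-1.34, a call lost when scaled by total reads), but its 4-cell embryos (mean 205) were not above its 8-cell embryos (mean 290). CNOT1 was lowest in oocytes, and its change over EGA (1.14) passed with limma but not with edgeR or DESeq2. For CNOT2, CNOT6 and PARN, neither a stage effect nor a change at EGA passed the test. PAN2 had its lowest level in 4-cell embryos. CNOT3 and CNOT8 had so few reads that they were left out of the main models. Fitted without the filter on reads, neither passed after adjustment (limma). In that fit 6 of 10 members had an unadjusted p under 0.05 for the stage effect and 5 for EGA. Of the 8 members tested, 5 had a stage effect (BTG4, CNOT1, CNOT6L, CNOT7 and PAN2), where 66.7% of all loci had one, so that share is near the background. At EGA 3 members were lower (background 29.9%) and 1 was higher (background 36.9%).

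BTG4 (XLOC_017407) had normalised counts of 904 and 1428 in the MII oocytes, 798 and 1181 in 2-cell and 771 and 983 in 4-cell embryos. In 8-cell embryos the counts were 5.40 in replicate 1 and 162 in replicate 2. It is listed at 0 in both 16-cell embryos, and counts were 0.773 and 0 in early morulae, 2.22 and 0.938 in compact morulae, and 0 and 4.75 in blastocysts. No embryo from the 16-cell stage on held more than 3 reads, which is at or under the floor. Samples before EGA overlapped between neighbouring stages, and all of them lay above every later sample.

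For BTG4 the mean was 1011 ± 252 before EGA (SD, n = 6), and 17.6 ± 50.7 after it (SD, n = 10), where the median was 0.856. The means of log2(value + 1) differed by -8.35 (standard error 0.81; adjusted p = 1.66e-08, limma), and its size depended on the pseudocount and the test. With the reads tested by DESeq2 it was -5.18 and by edgeR -5.87. Every one of the 10 later samples lay below the 6 earlier ones for 2 of the 8 members tested, BTG4 and CNOT6L, against 14.1% of all loci. From the 4- to the 8-cell stage the log2 change of BTG4 was -4.75 (standard error 1.12, adjusted p = 0.00457, limma; 19.1% of all loci were lower). With limma it was -2.42 without 8C replicate 1 and -7.09 without 8C replicate 2, each resting on a single 8-cell embryo. The extent of the loss at this stage thus differed between the 8-cell embryos. A further change to the 16-cell stage was -5.01 (standard error 1.12, adjusted p = 0.048, limma; background 0.31%), but the call was lost under most alternatives. As both 16-cell embryos are listed at 0, the size of this step depends on the pseudocount and the test, and ranged from -3.06 to -9.63 with all samples. With limma that change was -7.35 without 8C replicate 1 and -2.68 without 8C replicate 2, each again resting on a single 8-cell embryo.

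**Figure D1:**
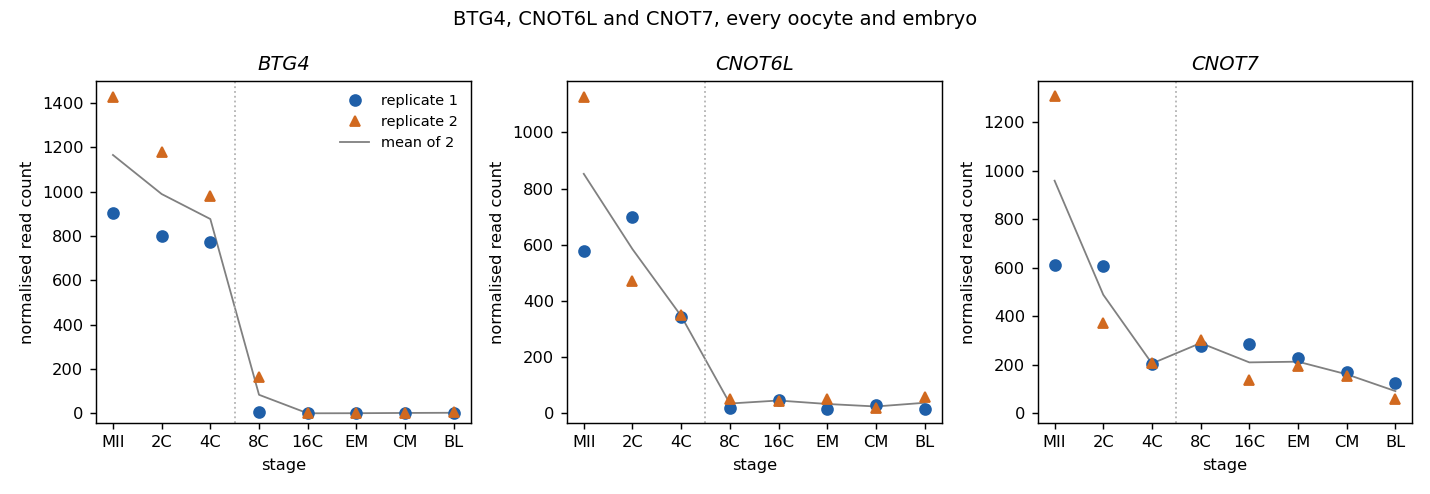
Normalised read count (y axis) of BTG4, CNOT6L and CNOT7 at 8 stages (x axis), with a point per oocyte or embryo and a line through the mean of 2, the dotted line marking EGA. BTG4 and CNOT6L dropped between the 4- and 8-cell stages, with BTG4 at 5.40 and 162 in the 8-cell embryos, whereas CNOT7 was already at 202 and 209 in 4-cell embryos.

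CNOT6L (XLOC_060669), one of the CCR4-type nucleases, also fell at EGA but was still read in every later embryo. Its normalised counts were 578 and 1127 in MII oocytes, 699 and 470 in 2-cell, and 343 and 350 in 4-cell embryos. They were 18.0 and 51.6 in 8-cell and 45.7 and 45.3 in 16-cell embryos, 13.9 and 52.4 in early morulae, 28.8 and 19.7 in compact morulae, and 16.2 and 58.6 in blastocysts. The 4-cell embryos lay below the 2-cell embryos without overlap, and after EGA the 16-cell embryos lay above the compact morulae, while stages next to each other in order of the means overlapped.

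The mean of CNOT6L was 595 ± 295 before EGA (SD, n = 6) and 35.0 ± 17.4 after it (SD, n = 10), a log2 change of -4.09 (standard error 0.39, adjusted p = 1.37e-08, limma). Most of it lay between the 4- and 8-cell stages, at -3.46 (standard error 0.73, adjusted p = 0.00229, limma). This change was -2.72 without 8C replicate 1 and -4.19 without 8C replicate 2, each resting on a single 8-cell embryo. The step from MII to 2C was -0.49 (standard error 0.73, adjusted p = 0.827, limma) and that from 2C to 4C -0.72 (standard error 0.73, adjusted p = 1, limma), neither of which passed.

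CNOT6 (XLOC_063524), the paralogue of CNOT6L, had normalised counts between 13.8 and 50.0 before EGA and between 14.4 and 61.9 after it. By sample, these were 22.2 and 13.8 in MII oocytes, 22.2 and 50.0 in 2-cell, 44.3 and 26.8 in 4-cell, and 14.4 and 61.9 in 8-cell embryos. Later embryos had 30.5 and 32.3 (16C), 48.7 and 28.2 (EM), 17.7 and 30.02 (CM) and 24.3 and 17.4 (BL). The 8-cell embryos alone spanned nearly the whole range, and the stage effect did not pass (adjusted p = 0.782, limma). From before to after EGA the mean was 29.9 ± 14.1 (SD, n = 6) and 30.6 ± 14.8 (SD, n = 10), a log2 change of 0.03 (standard error 0.39; adjusted p = 0.949, limma).

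Because a change in the ratio of 2 genes does not depend on their lengths, the balance of these paralogues was compared within samples. The log2 ratio of CNOT6L to CNOT6 lay between 2.93 and 6.25 before EGA and between -1.74 and 1.69 after it, without overlap. Its mean went from 4.27 ± 1.25 (SD, n = 6) to 0.14 ± 0.96 (SD, n = 10), a difference of -4.12 (two-sided exact permutation test over samples, p = 0.000125, the smallest that 8008 splits can give, adjusted p = 0.00025 over 2 ratios). It was -4.14 without 8C replicate 1 and -4.08 without 8C replicate 2. The rule for reads that fit both paralogues is not given in the sources used here, so reads shared between them could move either value.

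**Figure D2:**
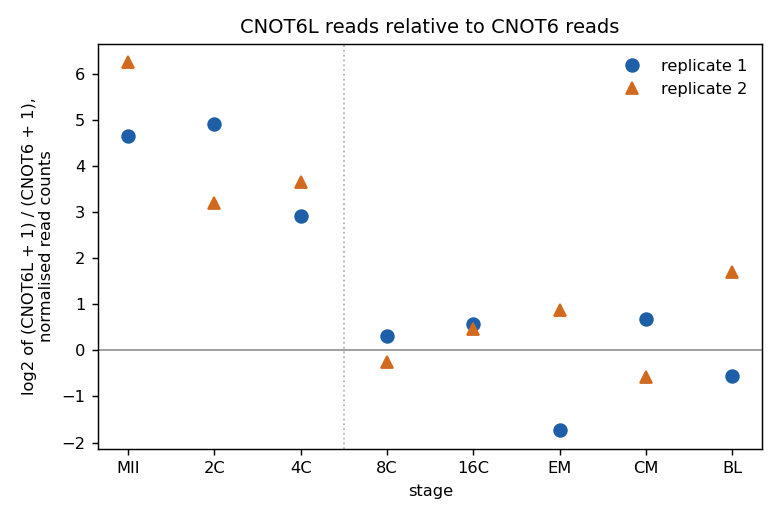
Log2 ratio of CNOT6L to CNOT6 normalised counts plus 1 (y axis) by stage (x axis), with a point per sample, the dotted line marking EGA and the solid line equal counts. The 6 samples before EGA sit between 2.93 and 6.25 and the 10 later ones between -1.74 and 1.69.

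CNOT7 (XLOC_046097), a nuclease that BTG4 can bind, was read in all samples at every stage. Its normalised counts were 611 and 1308 in MII oocytes, 606 and 372 in 2-cell, and 202 and 209 in 4-cell embryos. After EGA they were 276 and 304 in 8-cell and 284 and 136 in 16-cell embryos, 229 and 197 in early morulae, 170 and 152 in compact morulae, and 126 and 57.0 in blastocysts. In order of the means, MII was highest, then 2C, 8C, EM, 16C, 4C, CM and BL. The ranges of EM, 16C and 4C overlapped, and blastocysts lay below all other stages without overlap.

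The stage effect of CNOT7 had an adjusted p of 0.00294 (limma). Between the periods the mean was 551 ± 413 (SD, n = 6) and 193 ± 79.7 (SD, n = 10), with a log2 change of -1.34 (standard error 0.43, adjusted p = 0.00893, limma). Scaled by total reads, the change was -0.86 (adjusted p = 0.0626) and did not pass. The median of all loci tested shifted by 0.23 on the authors' scale and by 0.67 with total reads. No step between neighbouring stages passed for CNOT7. The step from the 2- to the 4-cell stage had a log2 change of -1.20 (standard error 0.56, unadjusted p = 0.0484, adjusted p = 1, limma), and 4-cell embryos lay below 2-cell embryos without overlap.

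CNOT8 (XLOC_063415), the paralogue of CNOT7, had 23 reads over all samples, 9 before and 14 after EGA, and at most 5 in a sample. Its counts before EGA were 2.77 and 0 (MII), 0 and 0.365 (2C) and 3.69 and 0.812 (4C). Both 8-cell embryos had its highest counts, 7.21 and 5.73, from 4 and 5 reads. Later it had 2.18 and 0 in 16-cell embryos and 1.01 and 3.17 in blastocysts, and it is listed at 0 in all 4 morulae. The log2 ratio of CNOT7 to CNOT8 changed by -1.48 from before to after EGA (two-sided exact permutation test, p = 0.0742, adjusted p = 0.0742), which did not pass and rests on few reads of CNOT8. Changes of CNOT8 were not detectable at this depth.

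**Figure D3:**
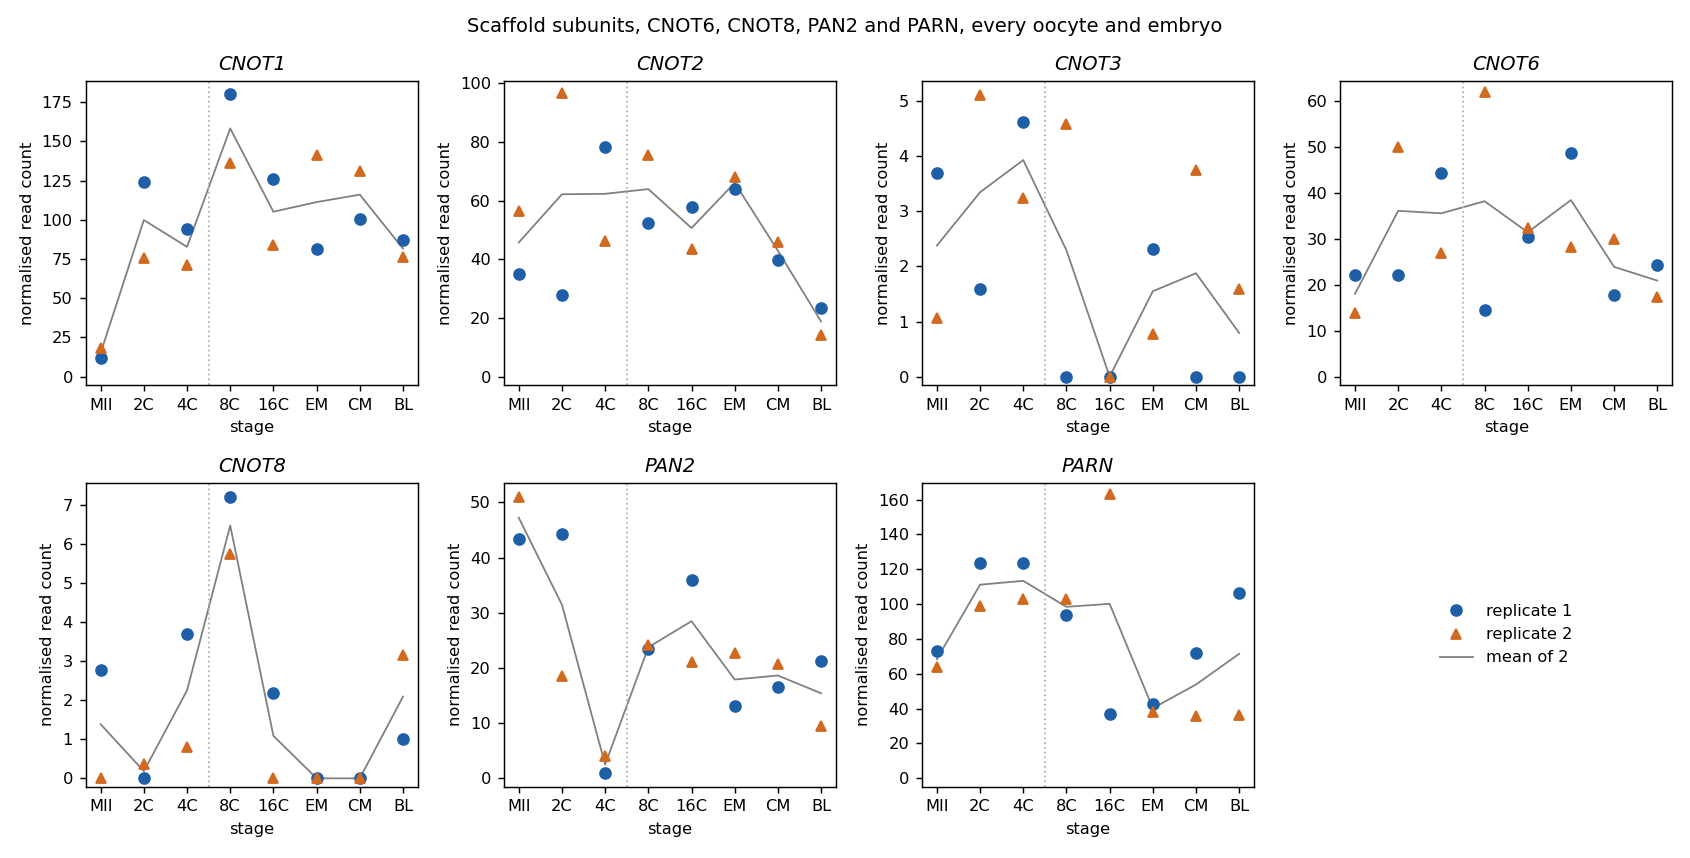
Normalised read count (y axis, its own scale in each panel) of CNOT1, CNOT2, CNOT3, CNOT6, CNOT8, PAN2 and PARN by stage (x axis), with a point per sample, a line through the mean of 2 and the dotted line at EGA. CNOT1 was lowest in MII oocytes (12 and 18.1), and PAN2 was lowest in 4-cell embryos (0.922 and 4.06).

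CNOT1 (XLOC_024588), the scaffold, was lowest in oocytes. Its normalised counts were 12 and 18.1 in MII oocytes, 124 and 75.5 in 2-cell, and 94.1 and 71.5 in 4-cell embryos. They reached 180 and 136 in 8-cell embryos, followed by 126 and 84.1 (16C), 81.2 and 142 (EM), 101 and 131 (CM) and 87.2 and 76.1 (BL). Both oocytes lay below all 14 embryos. In order of their means, neighbouring embryo stages overlapped, except that the 8-cell embryos lay above the compact morulae.

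In the step from MII to 2C, CNOT1 rose by a log2 change of 2.64 (standard error 0.52; adjusted p = 0.0245, limma), where 1.2% of all loci were higher. The median of all loci shifted by 0.15 in this step, or by 0.77 when scaled by total reads. This call was lost without any one of the 4 samples, with changes between 2.28 and 2.99 and adjusted p between 0.0564 and 0.0779. DESeq2 and edgeR on the reads also called it, at 2.73 (adjusted p = 0.000629) and 2.94 (adjusted p = 0.0479). The reads behind the oocyte values numbered 13 and 17. Over EGA it rose by 1.14 on the log2 scale (standard error 0.44; adjusted p = 0.0258, limma), from a mean of 65.9 ± 43.6 (SD, n = 6) to 115 ± 34.0 (SD, n = 10). It did not pass without either MII oocyte (0.75, adjusted p = 0.102, without replicate 1 and 0.86, adjusted p = 0.0832, without replicate 2), nor without the 8-cell stage (1.02, adjusted p = 0.0601), nor by edgeR (0.63, adjusted p = 0.208) or DESeq2 (0.80, adjusted p = 0.0888). The step from 4C to 8C did not pass either (0.93, standard error 0.52; adjusted p = 0.175, limma).

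CNOT2 (XLOC_057349) had normalised counts of 35.1 and 56.4 in MII oocytes, 27.7 and 96.7 in 2-cell and 78.4 and 46.3 in 4-cell embryos, with a median of 51.3 before EGA. After it they were 52.2 and 75.7 (8C), 57.7 and 43.7 (16C), 64.1 and 68.0 (EM), 39.9 and 46.0 (CM) and 23.3 and 14.3 (BL), with a median of 49.1. The blastocysts lay below all other samples. Neither the stage effect (adjusted p = 0.208, limma) nor the change from CM to BL passed the test (-1.19 on the log2 scale, standard error 0.62; adjusted p = 0.338, limma). From before to after EGA it moved by -0.23 on the log2 scale (standard error 0.39; adjusted p = 0.612, limma).

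CNOT3 (XLOC_024395), the partner of CNOT2, had 30 reads before EGA and 14 after it, with at most 14 in a sample. Its normalised counts were 3.69 and 1.06 in MII oocytes, 1.58 and 5.11 in 2-cell, 4.61 and 3.25 in 4-cell, and 0 and 4.59 in 8-cell embryos. They were 0 in both 16-cell embryos, 2.32 and 0.782 in early morulae, 0 and 3.75 in compact morulae, and 0 and 1.58 in blastocysts. The 5 embryos at 0 were all after EGA, and in order of the means all neighbouring stages overlapped. Most of these values are at or near the floor, and changes of CNOT3 were not detectable at this depth.

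PAN2 (XLOC_056753), the catalytic subunit of the PAN2-PAN3 deadenylase, showed a dip before EGA. Its normalised counts were 43.4 and 51.1 in MII oocytes, 44.3 and 18.6 in 2-cell, and 0.922 and 4.06 in 4-cell embryos, the last from 1 and 5 reads. In 8-cell embryos they were 23.4 and 24.1, and later 35.9 and 21.0 (16C), 13.1 and 22.7 (EM), 16.6 and 20.6 (CM) and 21.3 and 9.51 (BL). Both 4-cell embryos lay below all 14 other samples.

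The stage effect of PAN2 had an adjusted p of 0.00579 (limma), and its log2 change from the 4- to the 8-cell stage was 2.99 (standard error 0.70, adjusted p = 0.00452, limma; 17.7% of all loci were higher). That step was 3.01 without 8C replicate 1 and 2.97 without 8C replicate 2, each resting on a single 8-cell embryo. Without 4C replicate 1 these results were no longer past the threshold, with an adjusted p of 0.0808 for the stage effect and a change of 2.29 (adjusted p = 0.0608). The step down from 2C to 4C was -3.26 (standard error 0.70, unadjusted p = 0.000294, adjusted p = 0.71, limma). For that step 0 of 9670 loci passed with limma, 441 having an unadjusted p under 0.05, and edgeR called 0 and DESeq2 1. Between the periods, PAN2 changed by 0.33 on the log2 scale with limma (standard error 0.60; adjusted p = 0.631) and by -0.46 with edgeR (adjusted p = 0.465), and neither passed.

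PARN (XLOC_043357) had normalised counts of 72.9 and 63.8 in MII oocytes, 123 and 98.9 in 2-cell, 124 and 103 in 4-cell, and 93.7 and 103 in 8-cell embryos. The 16-cell embryos differed most, with 37.0 and 163. Early morulae had 42.5 and 37.9, compact morulae 72.0 and 35.7, and blastocysts 107 and 36.4. In order of the means, all neighbouring stages overlapped. Neither the stage effect (adjusted p = 0.378, limma) nor the change at EGA passed (-0.59 on the log2 scale, standard error 0.38; adjusted p = 0.178, limma).

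**Figure D4:**
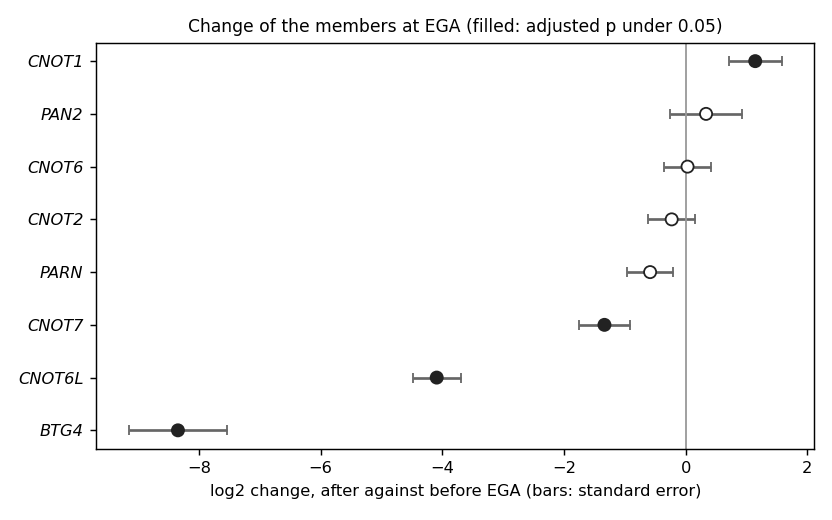
Log2 change from before to after EGA (x axis) of the 8 members tested (y axis), with bars of 1 standard error and filled points for an adjusted p under 0.05. BTG4 lies at -8.35, CNOT6L at -4.09, CNOT7 at -1.34 and CNOT1 at 1.14, and the other 4 lie between -0.59 and 0.33.

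Over the 7 steps between neighbouring stages, 5 of 56 tests of members passed, against 6.23% of the tests of all loci. They were CNOT1 from MII to 2C, BTG4, CNOT6L and PAN2 from 4C to 8C, and BTG4 from 8C to 16C. No member passed between 2C and 4C or in any step from 16C to BL with limma, and of these tests 2 had an unadjusted p under 0.05, those of CNOT7 and PAN2 from 2C to 4C. Neither edgeR nor DESeq2 called a member in those steps. Few loci of any kind passed there, with 0% from 2C to 4C, 0.103% from 16C to EM, 0% from EM to CM and 4.42% from CM to BL.

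Genes whose course was most like that of a member were found by the root mean square difference of centred log2 levels over the 16 samples, among 9084 named loci. For BTG4 they were the zona pellucida gene ZP2 (1.04), the oocyte translation factor EIF4E1B (1.07) and CMYA5 (1.07), where the median locus differed by 4.64. CDO1 (0.50), GOLT1B (0.51) and LOC539486 (0.52) were closest to CNOT6L, with a median of 2.47. For CNOT7 they were TCEA1 (0.43), COG5 (0.48) and KIAA0494 (0.49), with a median of 1.78.

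Other genes of mRNA decay and of poly(A) tails were grouped in 8 lists with 95 genes, of which 88 were found and 67 tested at EGA. After EGA 24 of them were higher and 18 lower, or 35.8% and 26.9%, against the 36.9% and 29.9% of all loci, and their median log2 change was 0.17 against 0.23. Each call named in the next paragraphs held in all 28 settings tried.

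Of the other CCR4-NOT subunits, 3 of 5 were tested. CNOT9, which binds the scaffold and adaptor proteins, rose by a log2 change of 1.55 (standard error 0.39, adjusted p = 0.00146, limma), from a median of 14.8 to 47.4 normalised counts. CNOT4 and CNOT10 did not pass, at -1.02 and -0.47. Of the other deadenylases all 7 were tested, and 2 rose, 2 fell and 3 did not pass. PNLDC1, a PARN-like nuclease known to trim piRNAs in germ cells, fell by 5.07 on the log2 scale (adjusted p = 6.23e-08, limma), from between 905 and 1728 counts to between 12.2 and 178. ANGEL1 fell by 3.60, and TOE1, which acts on small nuclear RNAs, rose by 1.95 with all later samples above the earlier ones. PAN3, the partner of PAN2, changed by -0.46 (standard error 0.33, adjusted p = 0.225, limma) and did not pass.

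Of the BTG and TOB family, to which BTG4 belongs, 2 of 5 were tested. BTG1 rose by a log2 change of 2.03 (standard error 0.45, adjusted p = 4.58e-04, limma), from a median of 29.8 to 93.4 counts, and TOB2 was at 1.05 and did not pass. BTG2, BTG3 and TOB1 had too few reads for the test.

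Adaptors that bring deadenylases to mRNAs changed in both directions, with 5 of 16 higher, 6 lower and 5 not past the test, and a median of -0.30. CPEB1 and CPEB4, which bind the cytoplasmic polyadenylation element, had log2 changes of -6.13 (adjusted p = 1.16e-07, limma) and -4.28 (adjusted p = 2.43e-06, limma). CPEB1 was between 72.3 and 260 counts before EGA and had a median of 0.391 after it.

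Decapping and the decay from the 5′ end follow deadenylation. Of 16 genes tested there, 8 were higher, 4 lower and 4 did not pass, with a median of 0.99. The decapping cofactor DCP1A had a log2 change of -2.57 (adjusted p = 7.87e-05, limma) and the exonuclease XRN1 one of -2.56 (adjusted p = 2.32e-04, limma), both without overlap between the periods. LSM6, of the ring that binds shortened tails, rose by 2.81. Of the exosome, which degrades RNA from the other end, 6 of 12 genes were higher, 2 lower and 4 not past the test. EXOSC1 rose by 3.09 (adjusted p = 5.35e-06, limma) and EXOSC2 by 3.07 (adjusted p = 2.59e-04, limma). EXOSC6 rose from a median of 5.31 to 30.3 counts (adjusted p = 9.88e-05, limma).

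Among enzymes that add to tails, 1 of 9 genes tested was higher, 4 were lower and 4 did not pass, with a median of -0.69. TENT5C, TENT5B and TENT4A, non-canonical poly(A) polymerases, had log2 changes of -3.51, -3.23 and -3.05, with adjusted p between 4.50e-07 and 1.52e-04 (limma). TENT4A was between 82.0 and 195 counts before EGA and between 6.47 and 33.3 after it. TENT5C overlapped between the periods, with 370 to 2413 counts before EGA and 27.7 to 1696 after it. Of the poly(A) binding proteins 2 of 7 were tested, PABPC4 at 0.45 (adjusted p = 0.241, limma) and PABPN1 at 0.85 (unadjusted p = 0.0399, adjusted p = 0.0587, limma), and neither passed.

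**Figure D5:**
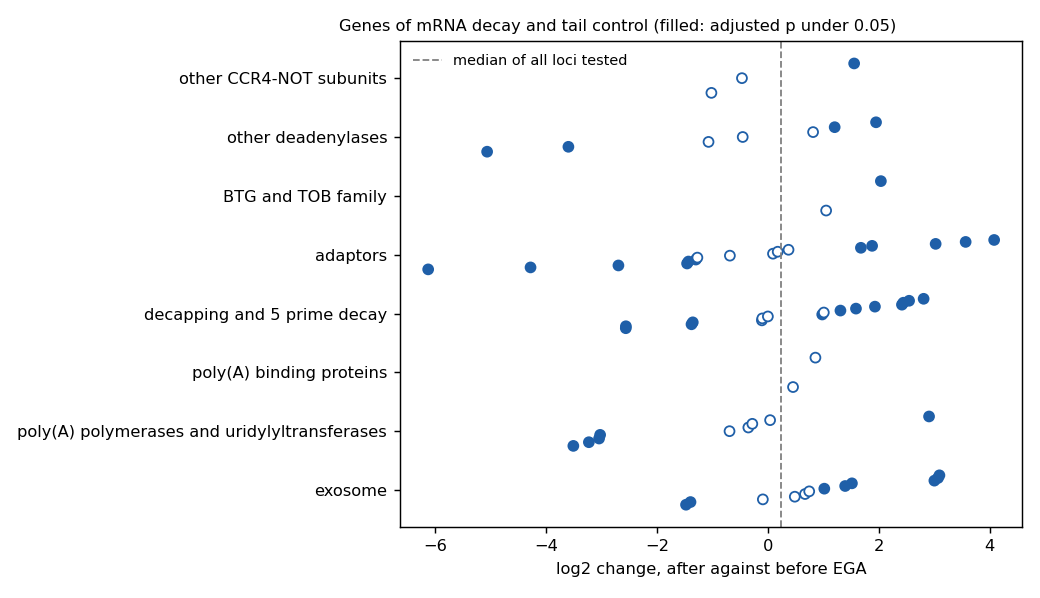
Log2 change from before to after EGA (x axis) of 67 genes in 8 lists of mRNA decay and tail control (y axis, a point per gene), filled where the adjusted p was under 0.05, with the dashed line at the median of all loci tested (0.23). CPEB1 lies farthest to the left at -6.13.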

How the data were processed

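RNA-Seq was done by the authors on single bovine oocytes and embryos (SOLiD libraries of RNA amplified in 2 rounds). The submitters' notes name cutadapt, FastQC, TopHat, Cufflinks and HTSeq. The genome build and the rule for multiply mapping reads are not given in the sources used here. Per the study, polyadenylated RNA was selected and primed with oligo-dT, so a change in amount and one in poly(A) tail length cannot be told apart. The deposited values are a signal per locus, the counts divided by a size factor of the sample. In each sample all values were whole multiples of the smallest (100% within 0.01), so reads were recovered by division. Loci were built by assembly and may cover more than the gene named.

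Stage effects, the change at EGA (6 against 10 samples) and 7 steps between stages were fitted with limma 3.58.1 in R 4.3.3, with trend, on log2(deposited value + 1), Benjamini-Hochberg at 0.05. Log2 changes of loci with few reads thus depend on the pseudocount and on the test. For BTG4 at EGA the change was -8.35 with limma, larger than with edgeR (-5.87) or DESeq2 (-5.18). Loci were kept by filterByExpr on recovered reads, 9670 for stages and 6910 for EGA. Ratios were tested by exact permutation with Python 3.11.15. Alternatives were TMM and total-read scaling, pseudocounts of 0.5 and 5, no filter, edgeR 4.0.16 and DESeq2 1.42.0 on recovered reads, a replicate block, an EGA contrast in the model of 8 stages, EGA without the 8-cell stage, summed loci and each sample left out. With a sample left out, steps to and from its stage rest on 1 sample there, and the spread comes from the other stages.

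Named were all 10 members, up to 3 genes per list with the largest change at EGA among those called, and the 3 loci most like BTG4, CNOT6L and CNOT7. One result under this rule is not reported here. Genes that did not pass (CNOT4, CNOT10, PAN3, TOB2, PABPC4, PABPN1) or could not be tested are named to account for their lists. The members and lists were chosen with earlier results of these data known. List genes were matched by name or older symbol, the synonyms taken from RefSeq genes (ARS-UCD2.0), which served for names only.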

Additional observations from a re-analysis of the deposited data

Results flagged for a closer look

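Single samples far from the others were looked for in the 10 members, separately before EGA (6 samples) and after it (10 samples), or in 20 groups. Among groups of normally spread values chance alone marks about 1 in 20, and 2 were marked here. These counts are skewed and each group pools several stages, so that rate need not hold. BTG4 had 161.7 normalised counts in 8C replicate 2, whereas the other 9 samples after EGA had at most 5.40. That embryo also held 1464 CPM on the oocyte markers, against 26.0 CPM in 8C replicate 1. CNOT7 had 1308.3 normalised counts in MII replicate 2, where the next highest sample before EGA, MII replicate 1, had 611. Of the 10 members, 6 were higher in MII replicate 2 than in replicate 1 (BTG4, CNOT1, CNOT2, CNOT6L, CNOT7 and PAN2) and 4 were lower (CNOT3, CNOT6, CNOT8 and PARN). Of the lower ones, CNOT3 (4 and 1 reads in replicates 1 and 2) and CNOT8 (3 and 0 reads) were near the floor. The share of all loci in each direction was not counted, so this split is no result about the members. The part of depth or developmental timing in these differences was not tested.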

How the results depend on the processing

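Of the 8 members tested, the number with a stage effect stayed at 5 under every alternative except the one without 4C replicate 1 (4, without PAN2). The number changed at EGA was 3 or 4. The number of steps between neighbouring stages that passed was 5, was 4 under TMM, total reads, a pseudocount of 5, no filter and edgeR, and was 3 to 4 with a sample left out. It was 3 without MII replicate 1 or 2, 2C replicate 1 or 2, or 4C replicate 1. The call most often lost was that of BTG4 from 8C to 16C. Its adjusted p ranged from 0.0397 to 0.113 over the other scalings, pseudocounts, filter and edgeR, and was 0.00145 with DESeq2. Of 67 list genes tested 37 to 42 changed at EGA, and 45 of 87 without a filter and 48 of 74 in the model of 8 stages. The difference of the CNOT6L to CNOT6 ratio ranged from -4.39 to -3.73 with a sample left out. That of CNOT7 to CNOT8 passed with a pseudocount of 5 (-1.41, exact permutation p = 0.00674), and with a sample left out it ranged from -1.97 to -0.99, passing without 4C replicate 1 (exact permutation p = 0.0193). The cause was not tested. No direction of a called value reversed.

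Replicate numbers of the labels name different embryos. Deviations of same-numbered samples correlated above 0.1 in 1 of 28 pairs of stages, with a range from -0.257 to 0.134. The labels give only the number, and whether same-numbered samples shared a run or an animal was not tested. With the replicate block, 4 steps passed in place of 5, the stage effects numbered 5 and the changes at EGA 4, and the ratio difference of CNOT6L to CNOT6 was -4.12 (exact permutation p = 0.000319). Depth limits CNOT3 and CNOT8, for which changes were not detectable.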

Other observations

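In CPM, the order of the stages before EGA was another for BTG4, with means of 511 ± 109 in MII oocytes, 815 ± 202 in 2-cell and 662 ± 115 in 4-cell embryos (SD, n = 2). On the authors' scale the means were 1166, 990 and 877 normalised counts. Neither step passed the test (log2 changes -0.23 and -0.16 on the authors' scale, adjusted p = 0.994 and 1, limma), so no order among these stages can be given. Between members, the smallest root mean square difference of centred log2 levels over the 16 samples was that of CNOT2 and CNOT6 (0.58), and BTG4 was closest to CNOT6L (2.66). The locus of CNOT3 had 44 reads in all, over 11 samples.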
